A study of Homo sapiens with 12 samples.

Results

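Cyclin-dependent kinase (CDK) inhibitors are the small proteins that stop the kinases driving the cell cycle. The 7 human genes that encode them, CDKN1A, CDKN1B, CDKN1C, CDKN2A, CDKN2B, CDKN2C and CDKN2D, were taken by symbol from a table of 35238 genes. Earlier results of these data were known when they were chosen. All 7 were found, and all 7 passed the filter on low values (a level of at least 1 CPM, counts scaled to a common library total, in at least 3 of the libraries compared) in every comparison. The libraries came from HK-2 cells, a line of human kidney proximal tubule cells. Cells received 10 nM of a scrambled siRNA (SCR) or of an siRNA duplex against POLR2A (siB). They were given aristolochic acid I (AAI), a plant toxin that forms DNA adducts, at 25 µM in DMSO, or the same volume of DMSO, for 24 hours. The 4 groups, SCR DMSO, SCR AAI, siB DMSO and siB AAI, held 3 replicates each, and all 12 libraries were from transfected cells in DMSO. A treatment label that read DMSO for every sample was set aside in favor of the sample titles. Nothing in the labels says that replicates were separate cultures, so p-values measure the spread between these samples, which may be technical.

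The CIP/KIP members CDKN1A (p21), CDKN1B (p27) and CDKN1C (p57) bind complexes of cyclins with several CDKs. The INK4 members CDKN2A (p16, and from another reading frame the MDM2 inhibitor p14ARF), CDKN2B (p15), CDKN2C (p18) and CDKN2D (p19) bind CDK4 and CDK6 and keep them from D-type cyclins. Either way the retinoblastoma protein RB stays unphosphorylated and holds back E2F factors and entry into S phase. In injured kidney tubules, p21 and p16 are widely used as markers of cell cycle arrest and senescence. As a limit of the model, HK-2 cells were immortalized with papillomavirus E6 and E7, and the E7 product inactivates RB. POLR2A encodes RPB1, the catalytic subunit of RNA polymerase II.

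Depth ran from 15844015 to 42805294 reads per library, and the fewest reads behind any member's value were 194 (CDKN2D in SCR DMSO replicate 3). One transcript, AC010970.2, took between 0.189% and 10.6% of the reads of a library. The targeted gene, POLR2A, had a mean ± SD (n = 3) of 284 ± 24.2 CPM for SCR DMSO against 140 ± 2.61 CPM for siB DMSO. With AAI it was 707 ± 30.1 CPM under SCR and 232 ± 29.5 CPM under siB, so siB lay below SCR in both media. The epithelial genes KRT8, KRT18 and EPCAM averaged 657, 355 and 159 CPM. Of 8 proximal tubule markers only 3 averaged at least 1 CPM (GGT1 at 134 CPM, SLC5A2 at 10.2 CPM and SLC34A1 at 1.19 CPM), and SLC22A6 was at 0 in 11 of 12 libraries. Of markers of other cell types, the T cell gene CD3E was at 0 in all 12 libraries and COL3A1 of fibroblasts was at 0 in 7, while COL1A1 and DCN averaged 25.9 and 2.63 CPM. The blood cell markers CD68 and PTPRC were above 0 in all 12 libraries, at means of 75.5 and 1.27 CPM. In bulk samples, a change in the share of a cell type and a change of RNA per cell cannot be told apart.

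The members are spread over 6 chromosomes, and 2 of them are neighbors. On hg38 (GENCODE 44), CDKN2A lies at chr9:21967752-21995301 and CDKN2B at chr9:22002903-22009305, both on the minus strand and 7601 bp apart. CDKN1A lies at chr6:36676460-36687337 on the plus strand, CDKN1B at chr12:12685498-12722369 on the plus strand and CDKN1C at chr11:2883213-2885775 on the minus strand, inside a cluster of imprinted genes. CDKN2C lies at chr1:50960745-50974634 on the plus strand and CDKN2D at chr19:10566460-10569059 on the minus strand. The gene spans ran from 2563 bp (CDKN1C) to 36872 bp (CDKN1B). Genes on the opposite strand overlap 5 of the 7, namely DINOL at CDKN1A, GPR19 at CDKN1B, CDKN2B-AS1 and another noncoding RNA at both CDKN2A and CDKN2B, and a noncoding RNA at CDKN2C. Whether counting used strand was not given in the sources used here, so reads of these partners cannot be told apart from the members'. GPR19, the partner with a protein product, lay between 1.24 and 4.80 CPM. The CDKN2A value covers the p16 and p14ARF transcripts together.

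Promoter sequence was available for 6 of the 7 members, as the 250 bases before the RefSeq start site (GRCh38.p14). It is shown for CDKN1A and CDKN2B, the members of either family with the clearest difference upward in SCR or siB cells, 5′ to 3′ on the gene's strand. Capitals mark the GC box GGGCGG, read on both strands (CCGCCC on the other), which SP and Krüppel-like factors are known to bind. The CDKN1A window is chr6:36678464-36678713 on the plus strand and the CDKN2B window is chr9:22009306-22009555 on the minus strand.
CDKN1A: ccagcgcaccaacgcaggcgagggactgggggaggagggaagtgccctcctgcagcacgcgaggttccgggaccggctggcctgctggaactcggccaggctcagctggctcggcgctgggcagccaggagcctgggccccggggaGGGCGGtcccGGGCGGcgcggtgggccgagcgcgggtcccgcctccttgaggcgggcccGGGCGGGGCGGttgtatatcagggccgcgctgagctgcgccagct
CDKN2B: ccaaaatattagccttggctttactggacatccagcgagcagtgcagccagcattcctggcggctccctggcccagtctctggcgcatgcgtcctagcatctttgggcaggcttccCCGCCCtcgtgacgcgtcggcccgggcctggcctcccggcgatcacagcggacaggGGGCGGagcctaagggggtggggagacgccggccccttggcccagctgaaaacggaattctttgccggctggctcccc
The CDKN1A window held 4 GC boxes, of which the last 2 share a base, and the CDKN2B window held 2. Of the others, CDKN2D held 2, CDKN1B held 1, and CDKN2A and CDKN2C held 0. The CDKN2A window, chr9:21995325-21995574, lies just outside the 5′ end of the gene. Sequence before any start site further inside CDKN2A was not examined, so the count does not cover both the p16 and the p14ARF transcripts. The motif was present in 42.6% of 35116 promoter windows of the same length, so its presence in 4 of 6 members does not set them apart. These matches describe the letters and are not binding sites.

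Per length of the canonical transcript, CDKN2A and CDKN1A were the most abundant inhibitors in all 4 groups. In SCR DMSO, CDKN2A lay at 396 ± 227 CPM per kb and CDKN1A at 85.4 ± 5.18 CPM per kb (SD, n = 3). CDKN1C, CDKN2C and CDKN1B followed at 35.6 ± 9.18, 35.2 ± 14.4 and 20.5 ± 10.4 CPM per kb, of which CDKN1C and CDKN2C lay closer to each other than their SDs. CDKN2D and CDKN2B were lowest at 9.31 ± 4.43 and 4.93 ± 2.35 CPM per kb. In siB AAI cells the top of the order was the same, with CDKN2A at 340 ± 49.5 and CDKN1A at 136 ± 11.4 CPM per kb, and CDKN1C lay at 17.6 ± 1.43 CPM per kb, below CDKN2C at 33.1 ± 9.21 CPM per kb. From here on, levels are in CPM, not divided by length.

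CDKN1A, the inhibitor that halts cells in G1 after DNA damage, was lowest in SCR DMSO and had closely similar means in the other groups. Replicates 1, 2 and 3 of SCR DMSO held 182, 169 and 191 CPM, against 299, 305 and 263 CPM with AAI. The siB libraries held 257, 304 and 303 CPM in DMSO and 304, 259.7 and 299 CPM in AAI. The 3 SCR DMSO libraries lay below all 9 others, while the other groups overlapped, with means of 289 ± 22.6, 288 ± 26.8 and 288 ± 24.2 CPM (SCR AAI, siB DMSO, siB AAI, n = 3). In SCR cells the difference of AAI from DMSO was 0.67 on the log2(CPM + 1) scale (SE 0.19, 95% interval 0.24 to 1.10), with an adjusted p of 0.0535 from limma (Benjamini-Hochberg, over all genes tested), which missed the threshold of 0.05. The numbers of the replicates were taken to pair these libraries, which the labels do not state. With a replicate block, a term for the number in the fit, the limma adjusted p was 0.0413. The median of all genes tested was itself 0.18 in this comparison and moved by 0.19 under median-ratio size factors. CDKN1A lay 0.49 above that median, and under those factors its difference was 0.47 with an adjusted p of 0.263. In siB cells the same contrast gave 0.00 (95% interval -0.25 to 0.25, limma adjusted p 0.991). Over both siRNAs, AAI minus DMSO within siRNA averaged 0.33, with a 2-sided exact permutation p of 0.055 over 400 arrangements, where 0.005 is the smallest possible.

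**Figure D1:**
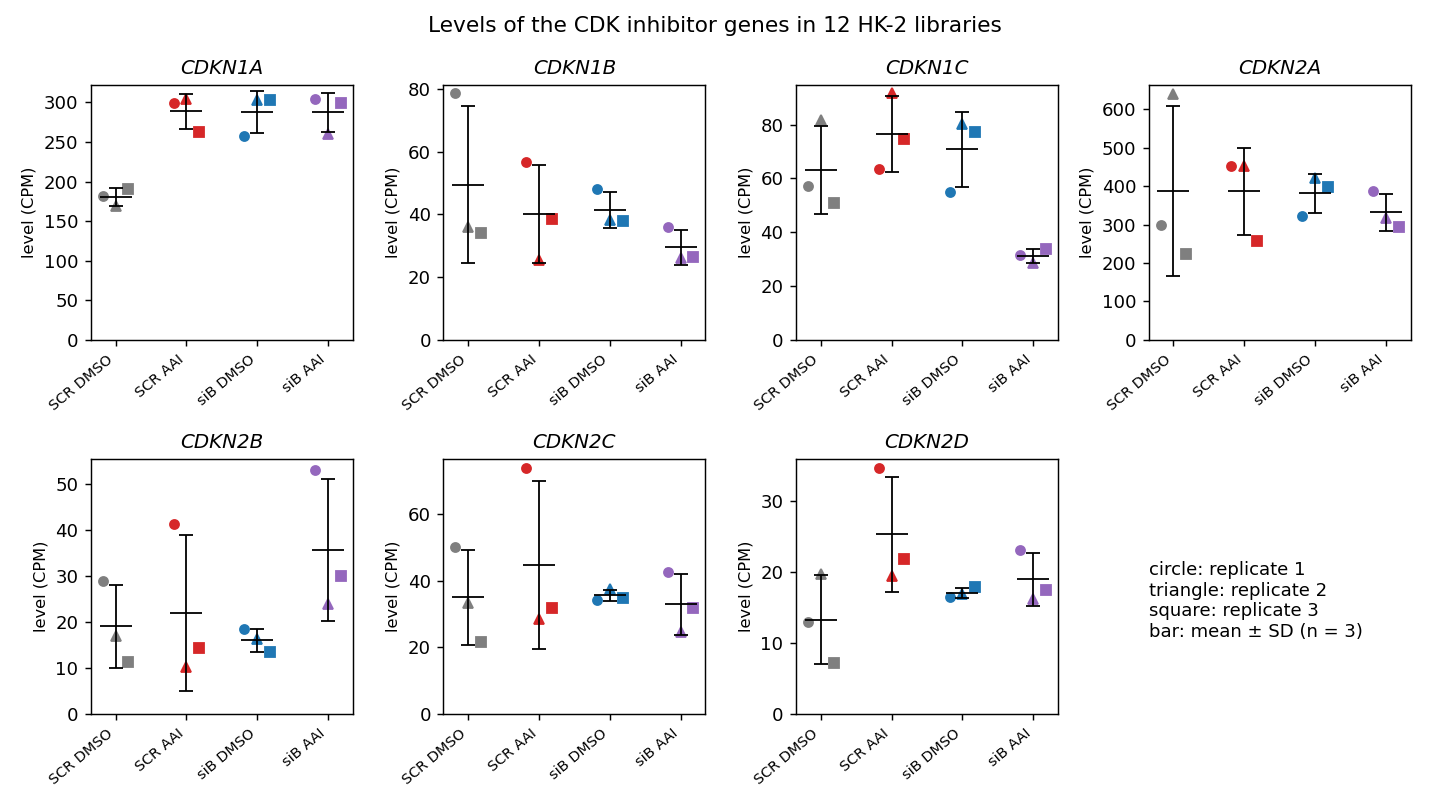
Level of each CDK inhibitor gene (CPM, y axis from 0) in the 4 groups (x axis), with 1 point per library, shaped by replicate number, and bars for the mean ± SD (n = 3). The CDKN1A libraries of SCR DMSO (169 to 191 CPM) lie below all others, and the CDKN1C libraries of siB AAI (28.6 to 33.6 CPM) lie below all others.

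CDKN1C, a maternally expressed inhibitor that is high in cells leaving the cell cycle, was lower in siB AAI than in every other group. In SCR cells it lay at 57.2, 81.6 and 50.7 CPM in DMSO and 63.5, 91.6 and 74.8 CPM in AAI. In siB cells it lay at 54.9, 80.4 and 77.3 CPM in DMSO and 31.6, 28.6 and 33.6 CPM in AAI. The highest siB AAI library lay below the lowest of the other 9 libraries, which overlapped across their 3 groups. CDKN1C fell by 1.14 on the log2 scale with AAI in siB cells (SE 0.16, 95% interval -1.50 to -0.78), with a limma adjusted p of 3.39e-04. Against SCR AAI, siB AAI cells were lower by a log2 difference of -1.25 (SE 0.18, 95% interval -1.64 to -0.87), with a limma adjusted p of 0.00231. In SCR cells its difference with AAI was 0.29 (95% interval -0.31 to 0.88, adjusted p 0.517). The interaction, the change with AAI in siB cells minus that in SCR cells, was -1.43 (SE 0.31, 95% interval -2.09 to -0.76), with a limma adjusted p of 0.0390. The adjusted p of the interaction ran from 0.0088 to 0.213 over 20 alternatives, of which 13 lost the call, while the difference itself ran from -1.62 to -1.29. It was 0.213 with voom on reads, where no gene passed, 0.182 for genes averaging at least 5 CPM, 0.144 with median-ratio size factors and 0.0770 with a pseudocount of 0.1. It passed without SCR AAI replicate 1, SCR DMSO replicate 2 or siB DMSO replicate 1, and lay between 0.0622 and 0.133 without any 1 of the other 9 libraries.

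CDKN1B, the inhibitor p27 that is high in resting cells and is marked for degradation by SKP2, was called with AAI in siB cells. In SCR cells it lay at 78.5, 35.9 and 34.1 CPM in DMSO and 56.6, 25.4 and 38.4 CPM in AAI, and the groups overlapped. In siB cells it lay at 48.2, 38.1 and 38.0 CPM in DMSO and 35.8, 26.1 and 26.4 CPM in AAI, without overlap. CDKN1B fell with AAI in siB cells by 0.48 on the log2 scale (SE 0.16, 95% interval -0.85 to -0.12), with a limma adjusted p of 0.0314. This call was lost when siB AAI replicate 2 or 3 or siB DMSO replicate 1 or 3 was left out, with adjusted p from 0.0540 to 0.113, and was at 0.291 when all 4 groups shared the fit. In SCR cells the difference was -0.26 (95% interval -1.20 to 0.68, adjusted p 0.715).

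CDKN2B, the INK4 inhibitor p15 that TGF-β signaling is known to induce, was the member that rose with AAI in siB cells. It lay at 28.9, 16.96 and 11.1 CPM in SCR DMSO and 41.4, 10.2 and 14.3 CPM in SCR AAI. It lay at 18.3, 16.1 and 13.4 CPM in siB DMSO and 53.1, 24.0 and 29.8 CPM in siB AAI. The SCR groups overlapped, with replicate 1 high in both, and every siB AAI library lay above every siB DMSO library. CDKN2B rose by 1.04 on the log2 scale with AAI in siB cells (SE 0.26, 95% interval 0.46 to 1.63, limma adjusted p 0.00813), and the adjusted p was 0.111 when all 4 groups shared the fit. In SCR cells its difference was 0.05 (95% interval -1.20 to 1.29, adjusted p 0.966). The interaction was 0.99 (SE 0.67, 95% interval -0.46 to 2.44, adjusted p 0.607), so the 2 siRNAs were not shown to differ. Between siB AAI and SCR AAI the groups overlapped and the difference was 0.84 (95% interval -0.05 to 1.73, limma adjusted p 0.221). Replicate numbers were taken to pair these libraries as well, and with a replicate block the limma adjusted p was 3.3e-06. Because limma draws each gene's variance partly from all genes, a value this small does not rest on the spread of these few libraries alone. Without SCR AAI replicate 1 the difference was 1.41, with an adjusted p of 7.6e-04.

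CDKN2A, CDKN2C and CDKN2D passed the test in no comparison. CDKN2A, the neighbor of CDKN2B, lay at 298, 639.5 and 224 CPM in SCR DMSO and 452, 452 and 256 CPM in SCR AAI, and at 323, 422 and 398 CPM in siB DMSO and 387, 316 and 294 CPM in siB AAI. All 4 groups overlapped, and the SCR DMSO libraries alone spanned the whole range of the gene. Its difference with AAI was 0.10 in SCR cells (95% interval -0.86 to 1.05) and -0.20 in siB cells (95% interval -0.51 to 0.11, limma adjusted p 0.252). CDKN2C lay at 50.1, 33.3 and 21.7 CPM in SCR DMSO and 74.0, 28.6 and 31.8 CPM in SCR AAI, and at 34.4, 37.5 and 34.96 CPM in siB DMSO and 42.7, 24.6 and 31.7 CPM in siB AAI. Its difference with AAI was 0.29 in SCR cells (95% interval -0.71 to 1.30) and -0.14 in siB cells (95% interval -0.56 to 0.28). Intervals this wide in SCR cells leave room for changes of 2-fold.

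CDKN2D, the p19 inhibitor that peaks in S phase in many cells, lay at 12.9, 19.7 and 7.13 CPM in SCR DMSO and 34.6, 19.5 and 21.8 CPM in SCR AAI. In siB cells it lay at 16.4, 16.9 and 17.8 CPM in DMSO and 23.2, 16.2 and 17.5 CPM in AAI. SCR DMSO replicate 2, the deepest library, lay above the lowest SCR AAI library. The difference with AAI in SCR cells was 0.94 (SE 0.40, 95% interval 0.03 to 1.86, limma adjusted p 0.172), and without SCR DMSO replicate 2 it was 1.26 with an adjusted p of 0.0158. In siB cells the difference was 0.13 (95% interval -0.23 to 0.50, adjusted p 0.519). The interaction for CDKN2D was -0.81 (95% interval -1.78 to 0.16, adjusted p 0.485).

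**Figure D2:**
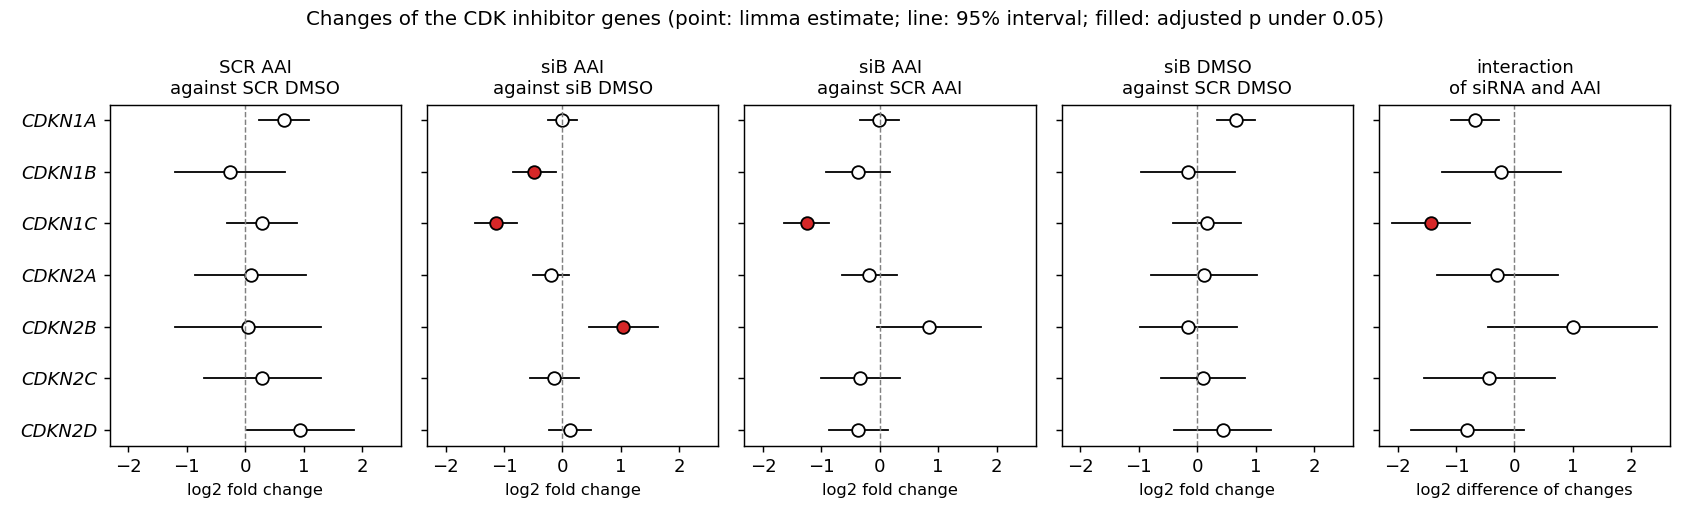
Log2 fold change of each member (rows) in the 4 pairwise comparisons and the interaction of siRNA and AAI (panels, x axis in log2 units), with limma's estimate as a point, its 95% interval as a line and filled points for an adjusted p under 0.05. Filled points are CDKN1B, CDKN1C and CDKN2B for AAI in siB cells, and CDKN1C in siB AAI against SCR AAI and in the interaction.

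The counts of members called were set beside those of all genes tested. With AAI in SCR cells 0 of 7 members passed at an adjusted p under 0.05 in limma, where 12.3% of 14228 genes did. At an unadjusted p under 0.05 there were 2 (CDKN1A and CDKN2D), near the 27% of genes that reached it, and voom called 0 members and 1581 genes. In 1 member (CDKN1A, higher) the groups did not overlap, where 33.8% of genes had such groups, 22.2% as higher. With AAI in siB cells 3 of 7 passed, 2 lower and 1 higher, where 52.2% of 14928 genes did, 21.8% as lower and 30.4% as higher. Of these, CDKN1C and CDKN2B also changed by at least 2-fold, where 19.7% of genes did, and the 3 called members were the ones with groups that did not overlap, where 60.8% of genes had. Between siB AAI and SCR AAI 1 of 7 passed, CDKN1C, where 9.28% of 14946 genes did, 3.79% as lower, and the same member had groups that did not overlap, where 30.8% of genes had. In the interaction 1 of 7 passed, again CDKN1C, where 1.61% of 15325 genes did and 0.157% did as lower. The median over the members was 0.29 with AAI in SCR cells and -0.14 in siB cells, beside 0.18 and 0.10 over all genes tested. The counts over all genes depended on single libraries, and for siB AAI against SCR AAI 1387 genes called became 213 without SCR AAI replicate 3 and 2104 without SCR AAI replicate 1.

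No member was called for knockdown without AAI. Between siB DMSO and SCR DMSO 0 of 7 passed in limma, where 0% of 13606 genes did, and voom called 0 as well. The siRNA target POLR2A, at -1.01 and with groups that did not overlap, was not called in limma either. The lack of calls in this comparison thus does not show a lack of change. At an unadjusted p under 0.05 there was 1 member, CDKN1A, among 644 genes (4.73%). CDKN1A differed by 0.67 (SE 0.14, 95% interval 0.33 to 0.999), with an unadjusted p of 0.00228 and an adjusted p of 0.935 in limma, and its groups did not overlap, where 11.9% of genes had such groups, 8.28% as higher. This comparison and that of SCR AAI use the same 3 SCR DMSO libraries, so both CDKN1A values rest on them. The other 6 members differed by between -0.15 (CDKN1B and CDKN2B) and 0.44 (CDKN2D). In AAI, knockdown left CDKN1A at a difference of -0.01 (95% interval -0.33 to 0.32), and its interaction was -0.67 (SE 0.19, 95% interval -1.08 to -0.26, limma adjusted p 0.112).

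Among the kinases and cyclins that the inhibitors bind, the mitotic B-type cyclins fell in both siRNA backgrounds. With AAI in SCR cells 0 of 12 measured genes rose and 2 fell, near the 12.3% of all genes that passed. These were CCNB1, by 1.37 (limma adjusted p 0.00297), and CCNB2, by 1.05 (adjusted p 0.0228) on the log2 scale. CCNE2 and CCND2 did not pass there but had groups that did not overlap, at 1.76 (adjusted p 0.0752) and -1.40 (adjusted p 0.0738). Of all genes, 33.8% had such groups. In siB cells 2 rose and 4 fell of 12, near the 52.2% of all genes that passed. CCNE2, an E-type cyclin of the G1 to S transition, rose by 0.87 (adjusted p 0.00505), and CCNE1 rose by 0.38 (adjusted p 0.0380). CCNB1, CCND2 and CCNB2 fell by 1.38, 1.30 and 1.24. The targets of the INK4 proteins, CDK4 and CDK6, passed in neither background, with CDK4 at -0.17 and -0.24 and CDK6 at -0.16 and 0.33 in SCR and siB cells. The median of this list was -0.05 in both, beside 0.18 and 0.10 over all genes.

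The CDC25 phosphatases, which remove inhibitory phosphates from CDKs, moved in opposite directions. In a list of 8 genes that switch CDKs on or off, CDC25A rose by 1.19 (limma adjusted p 0.00707) and CDC25B fell by 1.33 (adjusted p 0.00350) with AAI in SCR cells. In siB cells CDC25A rose by 0.84, while CDC25B, CDC25C and CDK7 fell by 1.59, 0.65 and 0.56. Of these 8 genes, 1 rose and 1 fell in SCR cells, where 12.3% of all genes passed. In siB cells 1 rose and 3 fell, near the 52.2% of all genes that passed. Of 13 genes of the RB and E2F families, 2 rose and 0 fell in SCR cells, where 12.3% of all genes passed, and 4 rose and 1 fell in siB cells, where 52.2% did. E2F1, a transcription factor of S phase genes, rose by 1.23 (adjusted p 0.00890) in SCR cells and by 1.003 in siB cells, and E2F2 rose by 1.73 and 0.77. E2F5, which works with RB relatives as a repressor, fell by 0.82 in siB cells. RB1 itself passed in neither, at 0.25 and 0.37.

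Transcription factors known to act on CDK inhibitor promoters included KLF4, which rose with AAI in both siRNA backgrounds. With AAI in SCR cells 1 of 17 tested rose, KLF4, an activator of CDKN1A, by 1.72 (limma adjusted p 0.00586), and 0 fell. Of all genes 12.3% passed there. In siB cells 7 of 18 rose, led by ETS2 at 1.002, KLF4 at 0.84 and ETS1 at 0.72, and 5 fell, led by MYC at -1.21, FOXO4 at -1.11 and SP1 at -0.74, beside 30.4% of all genes that rose and 21.8% that fell. MYC, which with ZBTB17 represses CDKN2B and CDKN1A, lay at 265, 301 and 281 CPM in siB DMSO and 93.6, 131 and 144 CPM in siB AAI. KLF6, the Krüppel-like factor the study centers on, differed by -0.11 in SCR cells (95% interval -0.76 to 0.53) and fell by 0.65 in siB cells (adjusted p 0.0132). Of 12 genes for ubiquitin ligases that degrade the inhibitors or mitotic regulators, 0 rose and 1 fell in SCR cells (CDC20, by 1.15), and 3 rose and 2 fell in siB cells. Over all genes, 12.3% passed in SCR cells and 52.2% in siB cells. SKP2, the receptor for p27, lay at 0.16 and 0.04 and passed in neither. In the interaction, 0 of the 64 genes tested in these 5 lists passed in limma, and 5 had an unadjusted p under 0.05. Over all genes, 1.61% passed and 13.3% had an unadjusted p under 0.05.

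**Figure D3:**
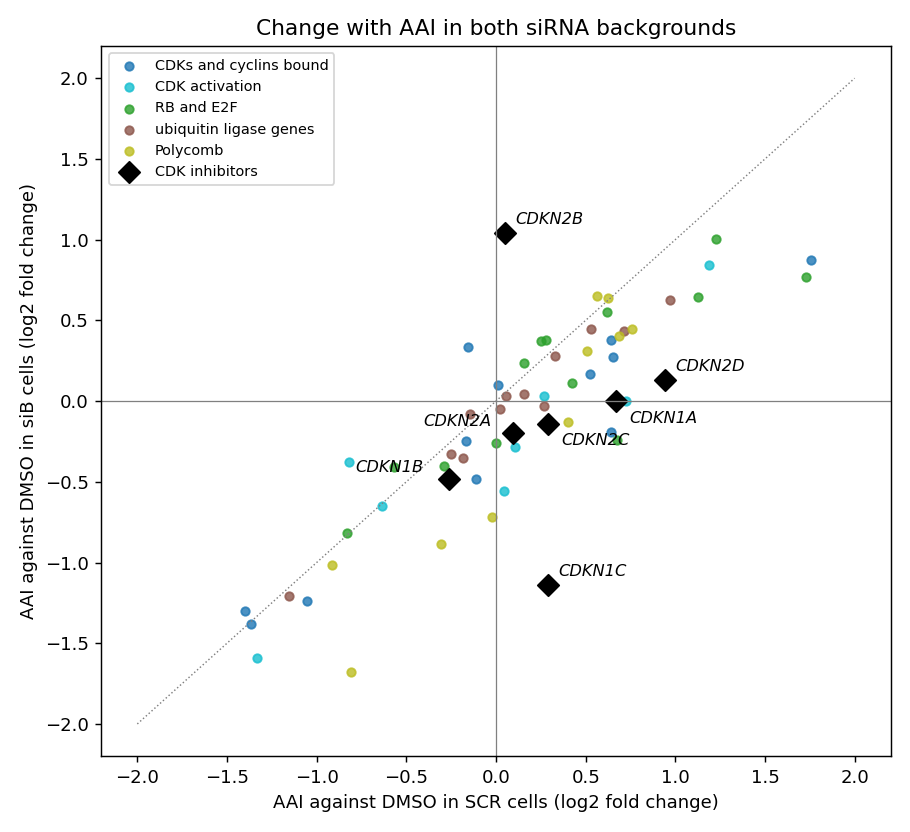
Log2 fold change with AAI in SCR cells (x axis) and in siB cells (y axis) for the 7 members (diamonds) and 5 lists of pathway genes (colored points), with a dotted line of equal change. The lists are CDKs and cyclins, genes that switch CDKs on or off, RB and E2F families, ubiquitin ligase genes and Polycomb genes. The transcription factors acting on CDK inhibitor promoters are not plotted. CDKN2B (0.05 and 1.04) lies above the line, and CDKN1C (0.29 and -1.14) lies below it.

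Some markers of other cell types differed in siB AAI, the group in which CDKN1C was low and CDKN2B high, but their directions varied within and between lists. The summed level of 3 endothelial markers ran from 3.75 to 5.62 CPM in siB AAI and from 1.12 to 2.495 CPM in the other groups. PECAM1 was the 1 of the 3 that passed the filter on low values, and VWF and CDH5 reached at most 0.832 and 0.369 CPM in any library. VWF had its lowest mean in siB AAI, at 0.0568 CPM. The summed level of 4 fibroblast markers ran from 11.03 to 21.0 CPM in siB AAI and from 31.4 to 34.6 CPM in siB DMSO. In SCR cells it was likewise lower with AAI, at 21.0 to 24.7 CPM against 29.9 to 51.4 CPM in DMSO. Most of this sum was COL1A1, so it does not speak for the list. The mean of DCN was not lower with AAI, at 2.49 against 1.75 CPM in SCR cells and 3.19 against 3.08 CPM in siB cells. PDGFRA, at low values, also had higher means with AAI, and COL3A1 lower ones. The 3 blood cell markers summed to between 67.8 and 75.0 CPM in siB AAI and between 60.1 and 98.1 CPM elsewhere, most of it CD68. PTPRC, of the same list, ran from 2.52 to 2.91 CPM in siB AAI and reached at most 1.34 CPM elsewhere, and it was called higher in siB AAI than in siB DMSO (1.33, limma adjusted p 3.03e-04) and SCR AAI (0.82, adjusted p 0.0291). Of 4 epithelial markers, CDH1, KRT18 and KRT8 fell by 0.82, 0.36 and 0.34 with AAI in siB cells. The proximal tubule marker ANPEP was also highest in siB AAI, with a mean of 3.08 CPM against 0.110 to 0.426 CPM in the other groups. Other genes of its list went the other way. GGT1 averaged 121 CPM in siB AAI and 175 CPM in siB DMSO, and SLC34A1 had its lowest mean in siB AAI, at 0.672 CPM. With AAI in siB cells 2 of the 4 tested proximal tubule markers rose and 1 fell, beside 30.4% and 21.8% of all genes. The part of these in the members' values was not tested.

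Within groups, several members followed the replicate number. CDKN1B and CDKN2B were highest in replicate 1 of all 4 groups, and CDKN2C in 3 of 4, whereas CDKN1C and CDKN2A were highest in replicate 2 of 3 groups each. Over all genes, 17.2% of 15325 were highest in replicate 1 of every group, 1.55% in replicate 2 and 0.777% in replicate 3. What replicates of one number shared was not given in the sources used here.

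**Figure D4:**
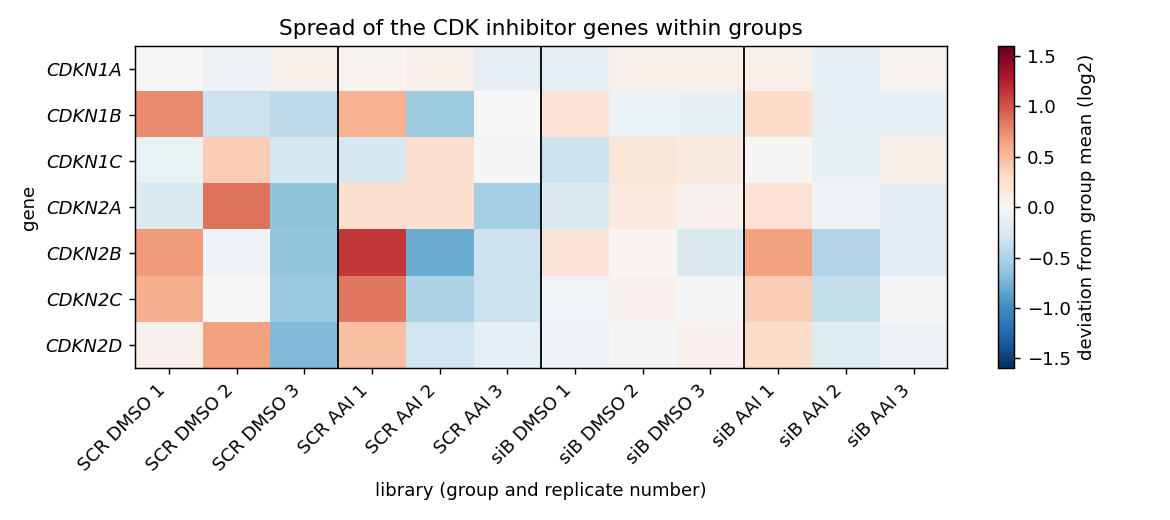
Deviation of each member (rows) from its group mean (color, log2 units, red above and blue below) in the 12 libraries (columns, by group and replicate number). CDKN1B and CDKN2B are red in replicate 1 of every group, and the row of CDKN1A is pale throughout.

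Across the 12 libraries, members differed in which genes they resembled, among 11435 genes averaging at least 5 CPM. Libraries of a group share their treatment, so these Pearson correlations of log2(CPM + 1) are descriptions. CDKN1A was nearest to MGAT4B (r = 0.949), MARVELD1 (0.938) and NPTXR (0.918). MARVELD1 was likewise lowest in SCR DMSO, with a mean of 65.6 CPM in SCR DMSO and 106, 107 and 105 CPM in SCR AAI, siB DMSO and siB AAI. CDKN1C was nearest to DPH7 (r = 0.965), RFX1 (0.964) and TRIM47 (0.962), each of which was lowest in siB AAI, at 20.8, 17.8 and 23.8 CPM. CDKN2B was nearest to ENC1 (r = 0.970), SMIM19 (0.964) and SLC9A3 (0.949), and ENC1 averaged 133 CPM in siB AAI and 72.9 to 83.7 CPM in the others.

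The other members resembled other genes. CDKN1B was nearest to FAM60A, SCD5 and RAB11A (r = 0.948, 0.944 and 0.944). CDKN2A was nearest to MZT2A, NDUFB2 and NBL1 (r = 0.945, 0.944 and 0.941). CDKN2C was nearest to ASRGL1, BRD3 and ARPC5 (r = 0.937, 0.936 and 0.927), and CDKN2D to KRI1, ZNF768 and TMEM203 (r = 0.961, 0.944 and 0.933). No member was among the 3 genes nearest to another. Between members the highest r over the 12 libraries was 0.72, for CDKN1B and CDKN2C, and the lowest was -0.62, for CDKN1C and CDKN2B. The adjacent genes CDKN2A and CDKN2B had an r of 0.09.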

How the data were processed

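RNA sequencing of 12 HK-2 libraries was analyzed. According to the methods of the study, the authors aligned reads to hg38 and counted them per gene on the BioJupies platform. They deposited log10 values, log10 of CPM plus 1, with no further scaling, so that 10 to the deposited value, minus 1, gave CPM, of which between 99.9972% and 100% of the values in a library were whole multiples of 1 read within 0.05 reads. Groups came from sample titles. limma 3.58.1 in R 4.3.3 (lmFit, eBayes with trend) was run on log2(CPM + 1), each pair of groups alone and the interaction over all 12 libraries, keeping genes that reached 1 CPM in 3 or more of the libraries fitted. Fold changes on this scale understate those of low genes. Adjusted p is Benjamini-Hochberg over all genes tested, called under 0.05. The fit was tested on simulated counts for the 2 SCR groups. All genes there had the same small spread between replicates, less than several members had, so the test does not show how the fit performs on these libraries. The members, lists and tests were chosen with earlier results of these data known. Genes named were the members, POLR2A, a short list of core partners, up to 3 genes each way per list and comparison among those called, and the 3 most similar genes of each member. The result for 1 core partner and the list built on it is not reported here.

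Pairing was checked by correlating, over 15325 genes, deviations of same-numbered libraries from group means. Libraries of different numbers were not correlated. The correlations were 0.42, 0.47 and 0.34 between SCR AAI and SCR DMSO and 0.61, 0.32 and 0.29 between siB AAI and SCR AAI, so the numbers were taken to pair those groups. The alternatives tried were median-ratio size factors, a pseudocount of 0.1, CPM without AC010970.2, no filter or one at a mean of 5 CPM, a single fit of all 4 groups, voom on recovered reads, a replicate block, no trend and leaving out each library in turn. Depth set the precision of low genes, which covers counting error only, since PCR copies of a molecule are counted as reads. Positions came from GENCODE 44 on hg38 and promoters from RefSeq. Figures were drawn with matplotlib 3.10.9.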

Additional observations from a re-analysis of the deposited data

Results flagged for a closer look

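The change of CDKN1C with AAI passed the test of a difference between the siRNAs, a call that 13 of 20 alternatives lost (adjusted p up to 0.213). The change was 0.29 in SCR cells and -1.14 in siB cells on the log2 scale, an interaction of -1.43 (limma adjusted p 0.0390). CDKN1C was lower in all 3 siB AAI libraries than in the 9 others. Groups of 3 were too small to test for single outlying samples.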

How the results depend on the processing

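Of 574 member values recomputed under an alternative, 515 kept their direction and their side of the threshold, 29 reversed, 19 lost the call and 11 gained it, and the cause was not tested. CDKN1C kept its call under all 15 alternatives with AAI in siB cells (-1.31 to -1.04, adjusted p 6.0e-05 to 0.00242) and in siB AAI against SCR AAI (-1.38 to -1.12, adjusted p 2.7e-14 to 0.0356). The smallest of these p-values lean on the variance that limma shares over all genes, not on the few libraries alone. For AAI in SCR cells 0 members were called in the pairwise fit, 1 with CPM without AC010970.2 (CDKN1A, adjusted p 0.0465), 1 with the replicate block, 2 with all 4 groups in the fit (CDKN1A at 0.00301 and CDKN2D at 0.0437) and 0 to 2 with 1 library left out (2 without SCR DMSO replicate 2, with CDKN1A at 0.0451). For AAI in siB cells the 3 calls became 1 with all 4 groups in the fit and 2 to 3 with 1 library left out. For siB AAI against SCR AAI the 1 call became 2 with the replicate block and 1 to 2 with 1 library left out. For the interaction the 1 call became 0 with a pseudocount of 0.1, median-ratio size factors, a mean CPM of at least 5 or voom, and 0 to 1 with 1 library left out. For CDKN1A over both siRNAs, leaving out a library gave 0.29 to 0.37 with exact p from 0.035 to 0.075, and median-ratio size factors gave 0.18 with an exact p of 0.245.

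Reversals were of small values that passed no test. With AAI in SCR cells, median-ratio size factors gave CDKN2A -0.11 and CDKN2B -0.14. With AAI in siB cells, CDKN1A was 0.0018 for CPM without AC010970.2 and 9.3e-05 with voom. With 1 library left out, values in SCR cells ran from -0.54 to 0.12 for CDKN1B, -0.22 to 0.53 for CDKN2A, -0.52 to 0.45 for CDKN2B and -0.13 to 0.58 for CDKN2C. In siB cells they ran from -0.081 to 0.070 for CDKN1A, -0.34 to 0.047 for CDKN2C and -0.015 to 0.23 for CDKN2D. Between siB AAI and SCR AAI they ran from -0.072 to 0.065 for CDKN1A and -0.58 to 0.090 for CDKN2C. Between siB DMSO and SCR DMSO they ran from -0.36 to 0.23 for CDKN1B, -0.21 to 0.55 for CDKN2A, -0.46 to 0.19 for CDKN2B and -0.19 to 0.39 for CDKN2C, and in the interaction from -0.61 to 0.055 for CDKN1B and -0.73 to 0.026 for CDKN2A.

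Same-numbered libraries of siB AAI and siB DMSO correlated at 0.21, 0.026 and 0.19, and those of siB DMSO and SCR DMSO at 0.73, 0.59 and -0.19. The first set was low throughout and the second was high for replicates 1 and 2 but not 3, so the numbers were not taken to pair these groups. The replicate block changed no other call of a member, with CDKN1C in the interaction at an adjusted p of 0.0200. Genes called numbered 4094 with all 4 groups in the fit, 2997 with the block and 769 for a mean CPM of at least 5, against 1755, for AAI in SCR cells. For siB AAI against SCR AAI they numbered 4325 with the block and 710 for a mean CPM of at least 5, against 1387, and for the interaction 46 with a pseudocount of 0.1, 625 with no filter, 389 with the block, and 0 with voom or a mean CPM of at least 5, against 247. With 1 library left out, genes called for AAI in SCR cells ran from 887 (without SCR AAI replicate 3) to 3156 (without SCR DMSO replicate 2), for siB AAI against SCR AAI from 213 (without SCR AAI replicate 3) to 2104 (without SCR AAI replicate 1), and for the interaction from 81 (without siB DMSO replicate 3) to 1010 (without SCR DMSO replicate 2), so the shares of all genes set beside the members move with single libraries.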

Other observations

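Polycomb proteins, which silence the CDKN2A and CDKN2B locus, were called in both directions in siB cells. Of 10 Polycomb genes, 0 passed with AAI in SCR cells in limma, where 12.3% of all genes did. At an unadjusted p under 0.05 there were 2, where 27% of all genes reached it. With AAI in siB cells 3 rose and 4 fell, where 52.2% of all genes passed. RING1, a subunit of the complex that marks histone H2A, fell by 1.68, and PHC1 and CBX7 fell by 1.02 and 0.88, while BMI1 and CBX8 rose by 0.65 and 0.64. RING1 was also lower in siB AAI than in SCR AAI, with a log2 difference of -1.05 (limma adjusted p 0.00554).

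Values of genes beside the members were set next to theirs, with no test between them. MTAP, next to the CDKN2A and CDKN2B pair, rose by 0.46 with AAI in siB cells (limma adjusted p 0.0417), where CDKN2B rose by 1.04 and CDKN2A stood at -0.20. In the imprinted cluster of CDKN1C, PHLDA2 rose by 1.30 with AAI in SCR cells (limma adjusted p 0.0441) and by 0.48 in siB cells, and SLC22A18 fell by 0.93 in siB cells. In those cells CDKN1C fell by 1.14.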
